A study of Homo sapiens with 8 samples.

Results

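The genes described here sense oxygen or respond to its shortage. A list of 34 was used: 8 genes of the sensing machinery and 26 that are known to be induced through it. A gene was a member when a probe set carried its symbol alone, and the probe set with the highest mean log2 intensity over the 8 arrays stood for it. In all, 33 of the 34 were measured, of 19775 genes measured on the arrays. FUT11 is named POFUT4 in the RefSeq annotation and was matched through its older symbol, and CA9 is not analysed here. Of the 33, 28 passed a filter on dim genes, a mean intensity of at least 83.3, the median of all probe sets other than controls. All arrays hold RNA of RL cells, a long-established line from a human B lymphoma, labelled t(14,18)+, grown for 14 days as multicellular aggregates without any further treatment named in the labels. Quiescent cells were sorted by dull staining with the RNA dye pyronin Y, and cycling cells by bright staining (4 arrays each). RL is 1 cell line. Whether the 4 samples of a fraction were grown separately is not said in the labels, and the p-values therefore cover only the spread among these arrays, part of which may be technical.

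Hypoxia-inducible factor (HIF) is a pair of an oxygen-labile alpha subunit, HIF-1 alpha or HIF-2 alpha, and a stable partner, ARNT. With oxygen present, EGLN enzymes hydroxylate the alpha subunit, VHL binds it and a ubiquitin ligase marks it for destruction. When oxygen falls, the alpha subunit persists, enters the nucleus and binds the core motif ACGTG or GCGTG near target genes, which adapt metabolism, pH, iron use, vessel growth and matrix. Control of the factor is thus largely through its protein, which arrays do not measure.

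The authors deposited linear MAS5 intensities, each array scaled to a trimmed mean of 500.1. A log2 difference is the quiescent mean minus the cycling mean of log2 intensities, and a gene was called when its Benjamini-Hochberg adjusted p over all 11678 genes tested with limma was under 0.05. Array medians lay between 103.4 and 113.4 on quiescent arrays and between 71.9 and 97.9 on cycling arrays, so the choice of scaling moves every difference. Over all genes tested the median difference came to 0.08 as deposited, −0.04 after quantile normalization and −0.33 after centring arrays on their medians. As deposited, 1431 genes were called higher and 1803 lower in quiescent cells, so 44.2% of calls were higher, against 39.1% after quantile normalization and 7.93% after centring. Each gene below is therefore given as deposited, and the other scalings are named where they end a call. Each difference is thus a relative one and gives no amount of RNA per cell, and in such sorted bulk samples fewer cells that express a gene and less of its RNA per cell cannot be told apart. The 5 cycling markers MKI67, TOP2A, CCNB1, PCNA and CDK1 were all lower in quiescent cells under each scaling, MKI67 with 362 ± 188 on quiescent and 1899 ± 388 on cycling arrays (SD, n = 4 each). The 7 measured B cell markers summed to 59876 to 76975 on quiescent and 62116 to 73432 on cycling arrays. The 16 measured markers of T, NK, myeloid, stromal, endothelial, epithelial and red cells summed to 1615 to 2273 on quiescent and 1169 to 1729 on cycling arrays. None of these 16 was listed at 0, 10 were under the filter, and limma called 0 of the 6 tested at an adjusted p under 0.05, with 2 at an unadjusted p under 0.05. The nearest was PECAM1, listed as an endothelial marker, with 538 ± 203 on quiescent and 294 ± 101 on cycling arrays (SD, n = 4 each) and overlapping groups. It did not pass (log2 difference 0.86, limma adjusted p = 0.0572) and was called higher with its probe sets averaged (0.89, adjusted p = 0.0253). VWF, the other endothelial marker listed, was under the filter, with 60.9 ± 20.1 on quiescent and 55.4 ± 16.8 on cycling arrays (SD, n = 4 each). As deposited 0 of the 7 B cell markers were called, with log2 differences from −0.15 to 0.28. After centring, 4 of the 7 were called lower, where 32.5% of all genes tested were. The part of these markers in the results was not tested.

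Many hypoxia-induced genes rose in quiescent cells, and neither HIF factor gene that was tested did. Of the 28 members past the filter, 14 rose and 0 fell in quiescent cells as deposited (limma, 18 higher and 0 lower at an unadjusted p under 0.05), against 12.3% of all genes tested called higher and 15.4% called lower. Of the 23 induced genes past the filter 13 rose, among them the growth factor VEGFA, the vasodilator peptide ADM and the stress protein NDRG1. Of the 5 machinery genes past the filter 1 rose, the oxygen sensor EGLN1. The median log2 difference of the 28 was 0.50, against 0.08 for all genes tested. It was 0.57 for the 23 induced genes and 0.47 for the 5 machinery genes, with all 5 of the latter above 0. The calls alone therefore do not show that the induced and machinery genes differ. After quantile normalization 16 of the 28 rose (10.5% of all genes), and after centring 8 did (2.8% of all genes). In both 0 members fell, against 16.4% and 32.5% of all genes. The 8 that rose under all 3 scalings were NDRG1, ADM, ANKRD37, PDK3, FUT11, VEGFA, BHLHE40 and KDM3A, all induced genes, against 2.74% of all genes tested. Of these, PDK3 rests on its brightest probe set and did not pass with its probe sets averaged (0.24, adjusted p = 0.253). The groups did not overlap for 16 of the 28, each time with quiescent arrays higher, as for 13.3% of all genes tested. The log2 ratio of 3′ to 5′ control probe sets of ACTB, a sign of RNA quality, was 2.57 ± 0.18 on quiescent and 2.02 ± 0.20 on cycling arrays (SD, n = 4 each, two-sided exact permutation p = 0.0286, the smallest the 70 assignments allow, adjusted over 4 ratios 0.0381). The other 3 control ratios differed less, by 0.31 for ACTB 3′ to middle, 0.16 for GAPDH 3′ to 5′ and 0.0041 for GAPDH 3′ to middle, where only the last did not pass (exact permutation p = 0.914). Their part in these results was not tested.

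**Figure D1:**
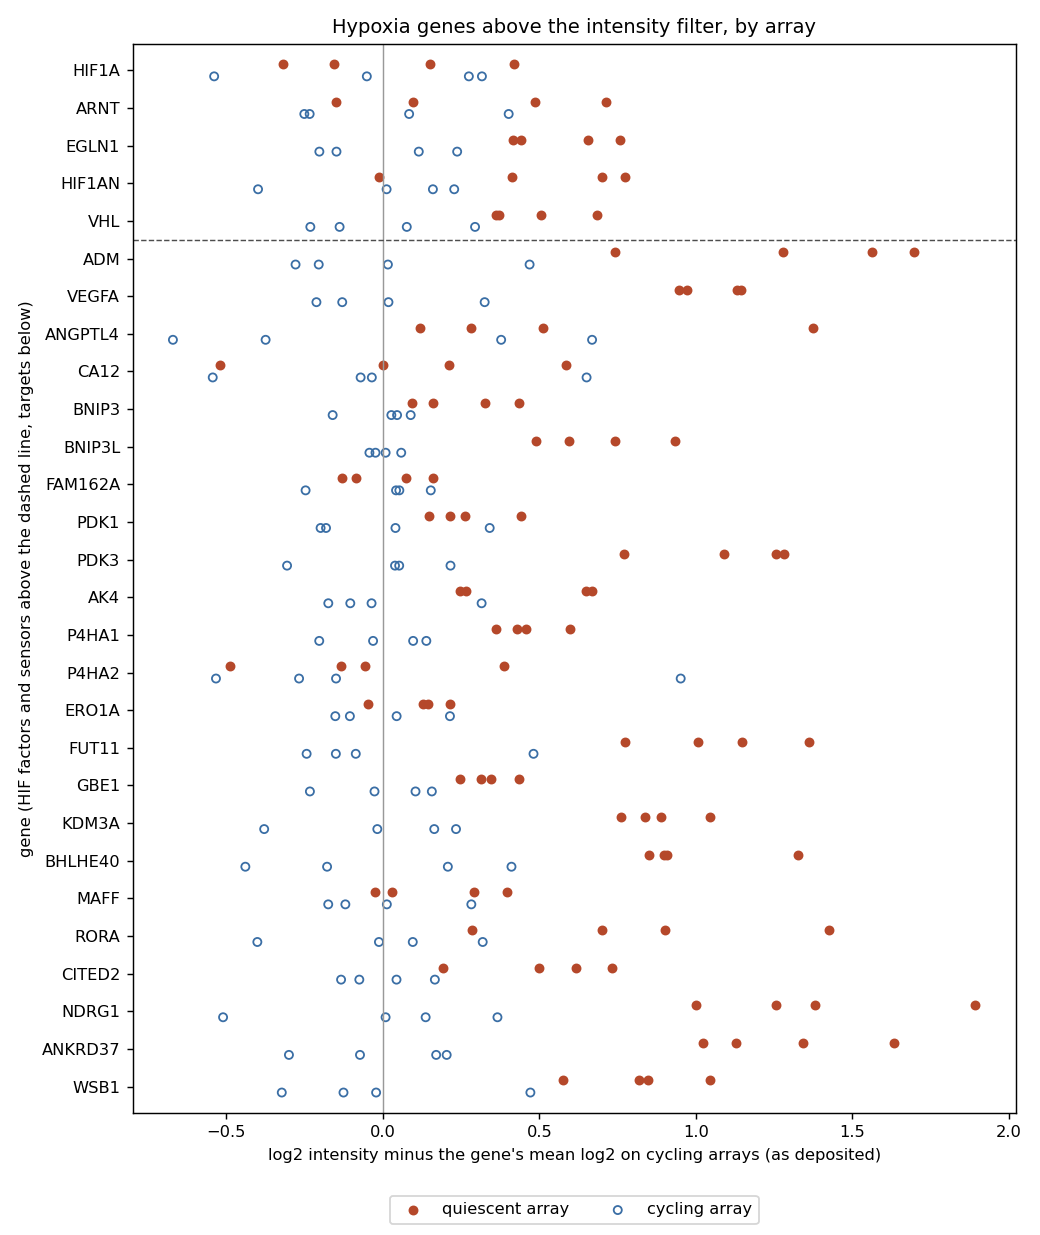
Log2 intensity of each of the 28 genes past the filter on every array, relative to the gene's mean on cycling arrays, with quiescent arrays as filled points above and cycling arrays as open points below. The points of NDRG1, ANKRD37, VEGFA and PDK3 are wholly apart, and those of HIF1A, FAM162A and ERO1A lie over each other.

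Among the factors, HIF1A encodes the alpha subunit of HIF-1. It measured 3301, 5501, 4569 and 3693 on quiescent arrays 1 to 4, against 2833, 5126, 3973 and 4979.9 on cycling arrays 1 to 4. The groups overlapped throughout, and the sample numbered 1 was the lowest in both. The log2 difference was 0.02 as deposited (95% interval −0.41 to 0.46, limma adjusted p = 0.945) and −0.39 after centring (adjusted p = 0.165). ARNT, the partner subunit, measured 729.98, 469.8, 557 and 855 on quiescent arrays, against 689, 552, 438 and 443 on cycling arrays. These overlapped too, with a log2 difference of 0.29 (interval −0.19 to 0.76, adjusted p = 0.357) that was −0.13 after centring. EPAS1, the alpha subunit of HIF-2, was under the filter, with 63.7 ± 25.9 on quiescent and 45.0 ± 38.6 on cycling arrays (SD, n = 4 each), and was not tested.

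Of the oxygen sensors, EGLN1 encodes PHD2, the main enzyme that marks HIF alpha for destruction, and is itself known to be induced by HIF. It measured 2824, 3334, 3584 and 2878 on quiescent arrays, against 1911, 2497, 1840.3 and 2294 on cycling arrays. Each quiescent array was above each cycling array. EGLN1 rose (log2 difference 0.57, SE 0.14, adjusted p = 0.00974 with limma), and it did not pass after centring (0.15, adjusted p = 0.521) or with its probe sets averaged (0.40, adjusted p = 0.0589). VHL, which recognises the hydroxylated subunit, measured 413, 467, 374 and 377 on quiescent arrays, against 357, 307, 264 and 248 on cycling arrays. Its groups did not overlap either, but it did not pass (log2 difference 0.48, interval 0.07 to 0.89, adjusted p = 0.0789). HIF1AN, an asparagine hydroxylase that blocks coactivator binding, measured 609, 499.6, 372 and 641 on quiescent arrays, against 419, 439, 378 and 284 on cycling arrays. Its groups overlapped at quiescent sample 3, and it did not pass (log2 difference 0.47, SE 0.22, adjusted p = 0.127). The sister sensors EGLN2 and EGLN3 were under the filter. EGLN2 lay at 9.56 to 21.3 on quiescent and 7.58 to 88.0 on cycling arrays at its probe set with 1 symbol, and 2 further probe sets that name several genes were not used. EGLN3 lay at 24.9 to 101 on quiescent and 16.8 to 136 on cycling arrays.

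The secreted and surface products include VEGFA, which drives vessel growth. VEGFA measured 14437, 16116, 16274 and 14188 on quiescent arrays, against 6353, 9221, 6726 and 7452 on cycling arrays. The 4 quiescent arrays lay close together and the highest cycling value, of sample 2, was well under the lowest quiescent one. VEGFA rose 2.07-fold (log2 difference 1.05, SE 0.12, limma adjusted p = 8.51e-05, and 0.64 after centring with adjusted p = 0.00337). ADM, which encodes the vasodilator adrenomedullin, measured 888, 809, 664 and 458 on quiescent arrays, against 238, 379, 226 and 277 on cycling arrays. Here the quiescent arrays spread more and all stayed above the cycling ones. ADM rose 2.49-fold (log2 difference 1.32, SE 0.24, adjusted p = 0.00148). ANGPTL4, an inhibitor of lipoprotein lipase, measured 370.4, 173, 203 and 155 on quiescent arrays, against 110.1, 89.7, 185 and 227 on cycling arrays. Quiescent sample 1 stood above the rest, the other arrays overlapped, and it did not pass (0.57, interval −0.21 to 1.35). CA12, a carbonic anhydrase of the cell surface, had 84.8 to 182 on quiescent and 83.5 to 191 on cycling arrays. It did not pass at this dim probe set (0.07, and −0.32 after quantile normalization), and its others past the filter had larger differences. The hormone STC2, with 40.8 to 132 on quiescent and 24.1 to 113 on cycling arrays, and the collagen cross-linker LOX, with 7.15 to 48.6 on quiescent and 9.02 to 47.4 on cycling arrays, were under the filter.

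**Figure D2:**
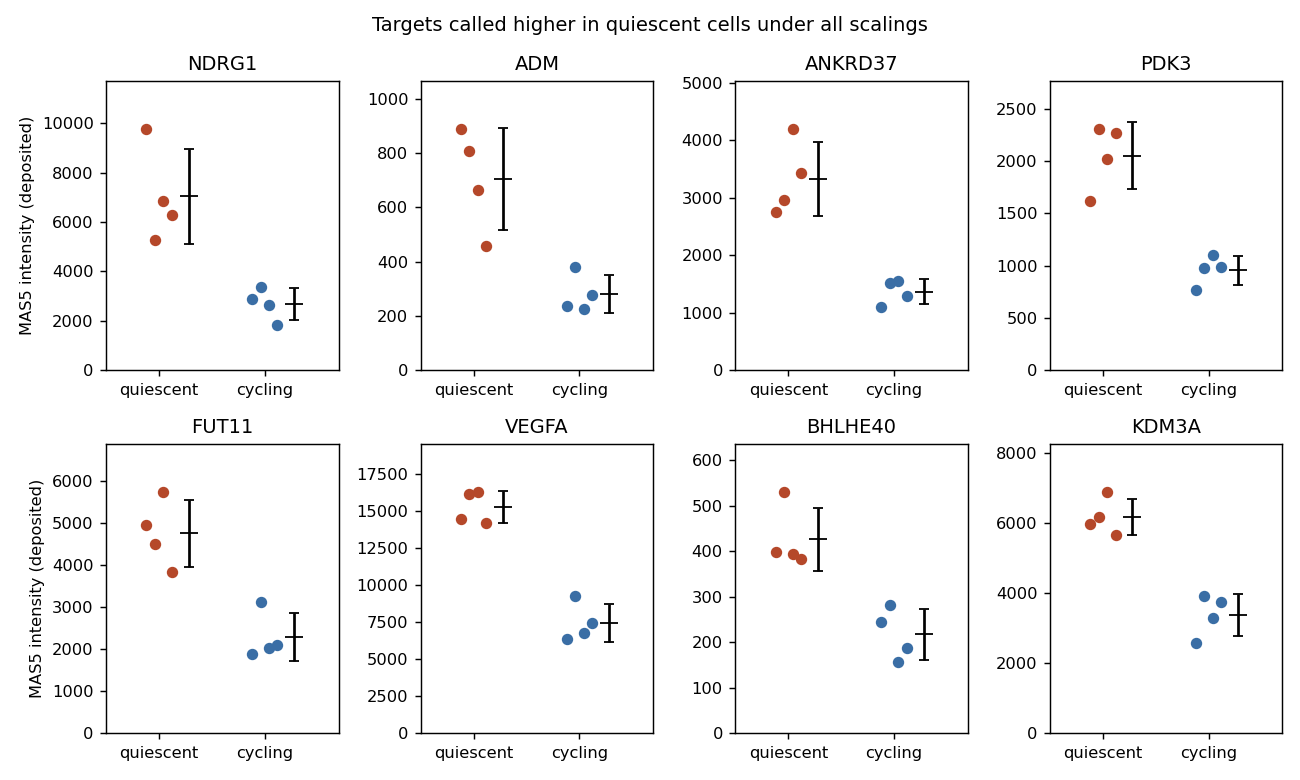
Deposited MAS5 intensities of the 8 genes called higher in quiescent cells under all 3 scalings, with 1 point per array, quiescent left and cycling right, and bars for the mean and SD (n = 4 each). No cycling point reaches a quiescent one in any of the 8 panels, and within a column arrays 1 to 4 run left to right.

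Of 5 regulators of transcription and chromatin, 3 rose as deposited, 3 after quantile normalization and 2 after centring. The shares of all genes tested were 12.3%, 10.5% and 2.8%. KDM3A, a histone demethylase that uses oxygen as a substrate, measured 5958, 6167, 6881 and 5650.4 on quiescent arrays, against 2562, 3918, 3292 and 3734 on cycling arrays. The groups were far apart relative to their spread, and KDM3A rose 1.84-fold (log2 difference 0.88, SE 0.14, limma adjusted p = 7.26e-04, and 0.47 with adjusted p = 0.0446 after centring). BHLHE40, a repressor that also acts on the circadian clock, measured 397, 531, 395 and 382 on quiescent arrays, against 244, 281, 156 and 187 on cycling arrays. Quiescent sample 2 stood above the other quiescent arrays, and the groups did not overlap. BHLHE40 rose 1.99-fold (log2 difference 1.00, SE 0.23, adjusted p = 0.00625, and 0.0481 after centring). CITED2, which competes with HIF for its coactivators, measured 1547, 1915, 2248 and 2079 on quiescent arrays, against 1235, 1519.6, 1285 and 1396 on cycling arrays. The lowest quiescent value only just exceeded the highest cycling one. CITED2 rose by 0.51 log2 units (SE 0.15, adjusted p = 0.02), and it did not pass after centring (0.10) or without quiescent sample 3 (adjusted p = 0.073), quiescent sample 4 (0.0612) or cycling sample 3 (0.0575). MAFF, a small Maf protein, and RORA, a nuclear receptor, did not pass, with log2 differences of 0.17 (interval −0.12 to 0.47, and −0.24 after centring) and 0.83 (interval 0.11 to 1.54, adjusted p = 0.0823). RORA was dim, at 109.97 to 242 on quiescent and 68.4 to 113 on cycling arrays.

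NDRG1, a stress-response protein, measured 9759, 5259, 6848 and 6278 on quiescent arrays, against 2888, 3386, 2643 and 1844 on cycling arrays. Quiescent sample 1 was the highest and cycling sample 4 the lowest, with no overlap. NDRG1 rose 2.61-fold (log2 difference 1.38, SE 0.21, limma adjusted p = 4.07e-04), the largest difference among the 28 under each scaling. ANKRD37, a small ankyrin repeat protein, measured 2749, 2959, 4196 and 3428 on quiescent arrays, against 1099, 1522, 1558 and 1286 on cycling arrays. It rose 2.43-fold (log2 difference 1.28, SE 0.16, adjusted p = 1.47e-04), again with no overlap. WSB1, a substrate receptor of a ubiquitin ligase, measured 8737, 10029, 8574 and 7233 on quiescent arrays, against 3884, 6737, 4453 and 4787 on cycling arrays. Cycling sample 2 came closest to the quiescent arrays. WSB1 rose 1.77-fold (log2 difference 0.82, SE 0.16, adjusted p = 0.00253) and did not pass after centring (0.41, adjusted p = 0.0749).

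Of 6 mitochondrial products, 3 rose as deposited, 4 after quantile normalization and 1 after centring, where 12.3%, 10.5% and 2.8% of all genes tested rose. The kinase PDK3 shuts down pyruvate dehydrogenase and so limits entry of carbon into respiration. PDK3 measured 1618, 2304, 2021 and 2267 on quiescent arrays, against 767, 975, 1102 and 984 on cycling arrays. It rose 2.14-fold without overlap at this probe set (log2 difference 1.10, SE 0.16, limma adjusted p = 3.54e-04), the only 1 of its 5 past the filter that was called. Its relative PDK1 measured 5189.9, 4585, 4230.4 and 4431 on quiescent arrays, against 4843, 3330.04, 3931 and 3370.4 on cycling arrays. These overlapped at cycling sample 1, and PDK1 did not pass (0.27, interval −0.04 to 0.57, and −0.15 after centring). BNIP3L, a receptor that marks mitochondria for autophagy, measured 12293, 14631, 16723 and 13219.8 on quiescent arrays, against 8615, 9120.0, 8810.2 and 8499.9 on cycling arrays. The cycling arrays were within a narrow range and all quiescent arrays were above it. BNIP3L rose by 0.69 log2 units (SE 0.11, adjusted p = 5.99e-04) and did not pass after centring (0.28, adjusted p = 0.207). BNIP3, of the same function, measured 25026, 22302, 26995 and 21271 on quiescent arrays, against 21227, 20338, 17858 and 20597 on cycling arrays. Its groups just failed to touch. BNIP3 did not pass as deposited (0.25, interval 0.04 to 0.47, adjusted p = 0.0764), passed as higher after quantile normalization (0.32, adjusted p = 0.0181) and had −0.16 after centring. AK4, an adenylate kinase of the mitochondrial matrix, measured 3316, 2479, 3272 and 2512 on quiescent arrays, against 2037, 2599.6, 1851 and 1944 on cycling arrays. The groups overlapped at quiescent samples 2 and 4 and cycling sample 2. AK4 rose by 0.46 log2 units (SE 0.15, adjusted p = 0.0412) but not after centring (0.04), nor without quiescent sample 1 (adjusted p = 0.0927) or 3 (0.124) or cycling sample 1 (0.074), 3 (0.118) or 4 (0.107). FAM162A, a HIF-induced protein of mitochondria, had 12571 to 15375 on quiescent and 11601 to 15307 on cycling arrays, a difference of 0.00 as deposited (interval −0.24 to 0.24) and −0.41 after centring (adjusted p = 0.0515).

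Of the enzymes that modify proteins and sugars, P4HA1, a subunit of collagen prolyl hydroxylase, measured 17807, 16172, 15861 and 15124 on quiescent arrays, against 12967, 12593, 11524 and 10229 on cycling arrays. All quiescent arrays were above all cycling ones. P4HA1 rose by 0.46 log2 units (SE 0.10, limma adjusted p = 0.00531) and had 0.05 after centring (adjusted p = 0.842). Its relative P4HA2 overlapped fully, with 357 to 656 on quiescent and 347 to 969.98 on cycling arrays, and its difference was −0.07 (interval −0.71 to 0.56). The fucosyltransferase FUT11 measured 4959.9, 4495, 5743 and 3825 on quiescent arrays, against 1889, 3123, 2016 and 2107 on cycling arrays. Cycling sample 2 was again the highest of its group, under all quiescent arrays, and FUT11 rose 2.10-fold (log2 difference 1.07, SE 0.17, adjusted p = 7.53e-04). GBE1, which branches glycogen, measured 2179, 2035, 2321 and 2133 on quiescent arrays, against 1683, 1459, 1843 and 1911 on cycling arrays. It did not pass although its groups did not overlap (0.34, interval 0.06 to 0.61, adjusted p = 0.0706), passed after quantile normalization (0.39, adjusted p = 0.0359) and had −0.08 after centring. ERO1A, which forms disulphide bonds in the endoplasmic reticulum, had 6682 to 8012 on quiescent and 6216 to 8013 on cycling arrays and did not pass (0.11, interval −0.14 to 0.36).

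Promoter stretches from RefSeq (GRCh38.p14) are shown for their HIF core motifs, for 6 of the 8 genes that rose under all 3 scalings, with EGLN1 as the sensor that rose and BNIP3 as the gene with the most matches in 1 promoter among those not called. Each stretch reads 5′ to 3′ on the gene's strand and surrounds the match nearest to the annotated start, and capitals mark ACGTG or GCGTG on either strand. The palindrome CACGTG, which other factors also bind, counts as a match on each strand.
ADM, chr11:10304932-10305016, plus strand: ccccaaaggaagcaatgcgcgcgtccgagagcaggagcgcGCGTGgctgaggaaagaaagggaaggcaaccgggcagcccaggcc
PDK3, chrX:24465185-24465269, plus strand: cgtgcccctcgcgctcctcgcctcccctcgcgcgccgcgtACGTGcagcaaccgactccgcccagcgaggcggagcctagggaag
KDM3A, chr2:86441305-86441370, plus strand: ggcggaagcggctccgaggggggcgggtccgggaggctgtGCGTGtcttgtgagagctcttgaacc
BHLHE40, chr3:4979248-4979332, plus strand: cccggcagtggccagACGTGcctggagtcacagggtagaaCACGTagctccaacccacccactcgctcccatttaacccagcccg
ANKRD37, chr4:185396658-185396742, plus strand: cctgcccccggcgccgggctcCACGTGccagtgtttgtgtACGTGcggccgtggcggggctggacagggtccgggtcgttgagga
FUT11, chr10:73772201-73772275, plus strand: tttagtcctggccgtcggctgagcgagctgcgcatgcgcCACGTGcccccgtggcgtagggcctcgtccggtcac
EGLN1, chr1:231422288-231422340, minus strand: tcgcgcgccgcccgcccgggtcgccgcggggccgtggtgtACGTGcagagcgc
BNIP3, chr10:131981983-131982067, minus strand: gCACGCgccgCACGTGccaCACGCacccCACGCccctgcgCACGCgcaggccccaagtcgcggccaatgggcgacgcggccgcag

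The nearest match lay 101 bases before the start for ADM, 61 for PDK3, 26 for KDM3A, 149 for BHLHE40, 143 for ANKRD37, 35 for FUT11 and 13 for EGLN1. ANKRD37 holds a palindrome and a single ACGTG within its window, and FUT11 1 palindrome. BNIP3 holds 6 matches in 250 bases, and its own difference was 0.25. Among genes past the filter with a listed promoter, the 250 bases before any listed start hold ACGTG in 15 of 20 induced genes and 1 of 4 machinery genes, and in 28.7% of the 9467 genes tested. They hold GCGTG in 11 of 20 and 1 of 4, against 52.2% of the genes tested, so for this motif the induced genes lay near the share of all genes. For either motif the counts were 18 of 20 and 2 of 4, against 64.0%. In all promoters listed, 18.5% hold ACGTG and 43.2% either motif. NDRG1, VEGFA, BNIP3L and VHL were not among the genes with a listed promoter and are not counted. The induced genes were listed because they are known to be induced through HIF. These shares therefore describe the list and say nothing of these arrays. A match is a string of letters and not a measured binding site.

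A constant factor on an array cancels where genes are compared within it. For each array the log2 values of the 23 induced genes, each minus its mean over the 8 arrays, were averaged, and the average of the 5 machinery genes was taken away. This difference was 0.16, 0.15, 0.26 and −0.03 on quiescent arrays 1 to 4, against −0.25, −0.12, −0.08 and −0.08 on cycling arrays 1 to 4. All quiescent arrays were above all cycling arrays, with quiescent sample 4 close to the cycling ones. Without EGLN1 among the machinery, the values ran from −0.05 to 0.35 on quiescent arrays and from −0.32 to −0.05 on cycling arrays, and quiescent sample 4 was then below cycling sample 4. Relative to all genes tested, the induced genes averaged 0.30 ± 0.07 on quiescent and −0.30 ± 0.08 on cycling arrays, and the machinery 0.16 ± 0.06 on quiescent and −0.16 ± 0.11 on cycling arrays (SD, n = 4 each). These averages describe chosen genes and carry no test.

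**Figure D3:**
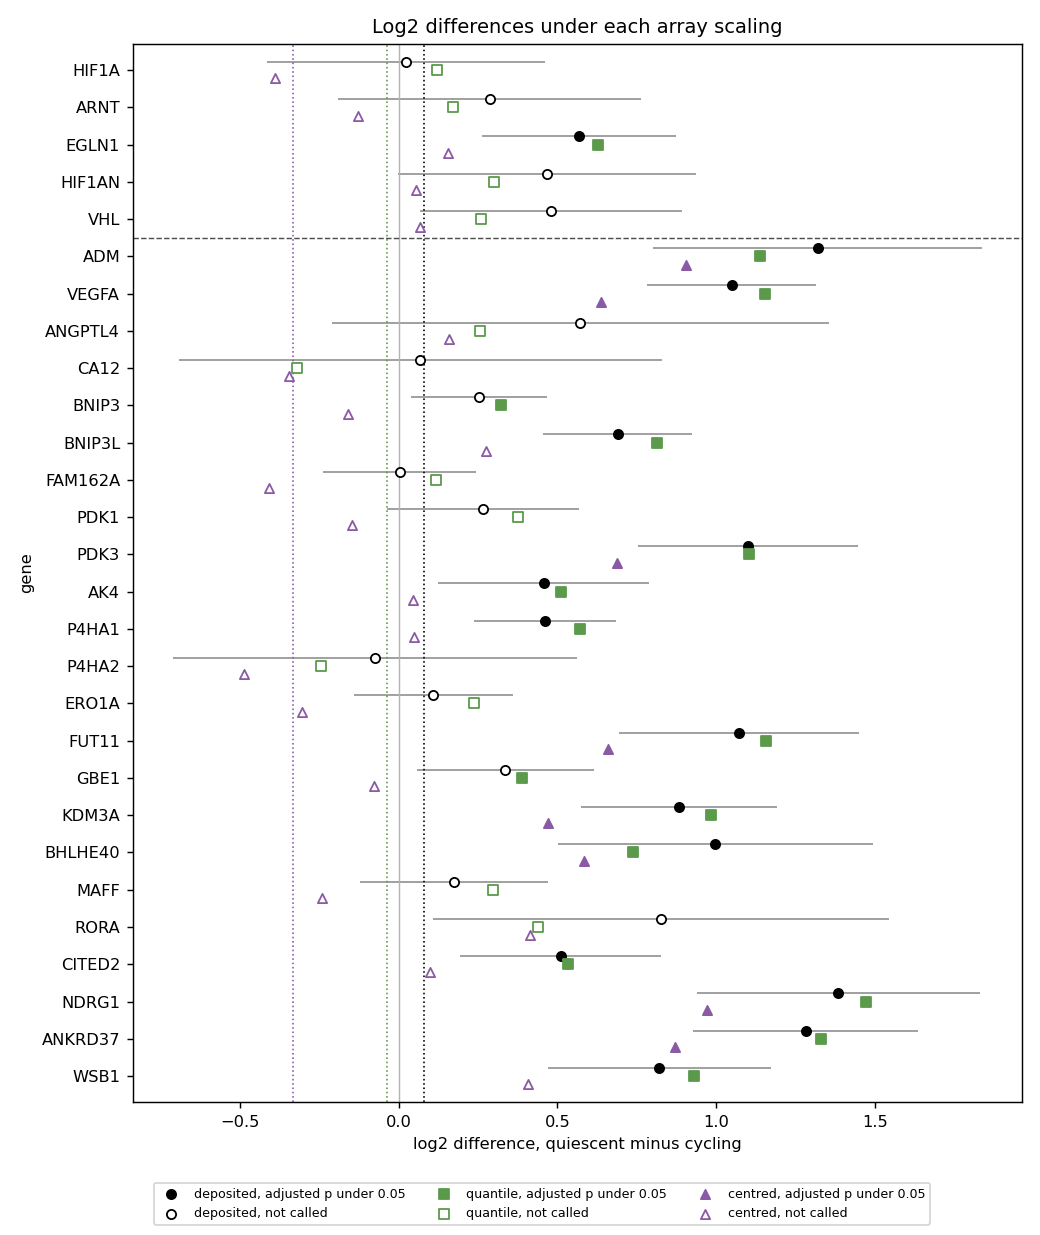
Log2 differences, quiescent minus cycling, of the 28 genes as deposited (circles, with 95% intervals), after quantile normalization (squares) and after centring (triangles), filled where the adjusted p was under 0.05, with dotted lines at the median of all genes tested under each scaling. Centring moves each gene down by 0.41, so that 8 of the 14 calls remain and HIF1A, ARNT, CA12, BNIP3, FAM162A, PDK1, ERO1A, GBE1 and MAFF change sign, and quantile normalization turns CA12.

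Other probe sets of the same genes on the same arrays gave a further view of the members. Of 42 other probe sets past the filter, for 19 genes, 19 were called higher and 0 lower by limma over all such probe sets, of which 14.3% were called higher and 12.0% lower. At the other 3 probe sets of VEGFA, log2 differences ran from 1.08 to 1.18, each called. For AK4 the 3 dimmer probe sets had larger differences than the brightest, 0.92 to 1.21, and all were called. For WSB1 the 4 others had 1.02 to 1.95 and were called as well. ERO1A, not called at its brightest probe set, was called at its 2 others with 0.58 (adjusted p = 0.00948) and 0.66 (0.00856). PDK1 was called at 1 of 2 others (1.15, adjusted p = 0.0157), RORA at 1 of 3 (1.80, 0.0118) and FAM162A at 1 of 4 (1.13, 0.00241). That RORA probe set spread widely on quiescent arrays, with 205 ± 164, against 48.7 ± 7.0 on cycling arrays (SD, n = 4 each). Its cycling mean lay under the filter level of 83.3, so it passed the filter only through its quiescent values. The others of CA12 had 0.95 (limma adjusted p = 0.0633) and 0.66 (0.162), neither called. Its probe sets averaged gave 0.56 (0.177). For PDK3 the probe sets disagreed. Its brightest probe set was the only one called, and the 4 others had log2 differences of −0.42, −0.09, 0.12 and 0.47. With all probe sets of a gene averaged, PDK3 and EGLN1 did not pass, and FAM162A, PDK1, ERO1A and RORA did (0.42, 0.60, 0.45 and 0.94). The RORA average includes the probe set that was under the filter level on cycling arrays. Probe sets of a gene can read different transcript ends, and which end each reads was not examined.

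**Figure D4:**
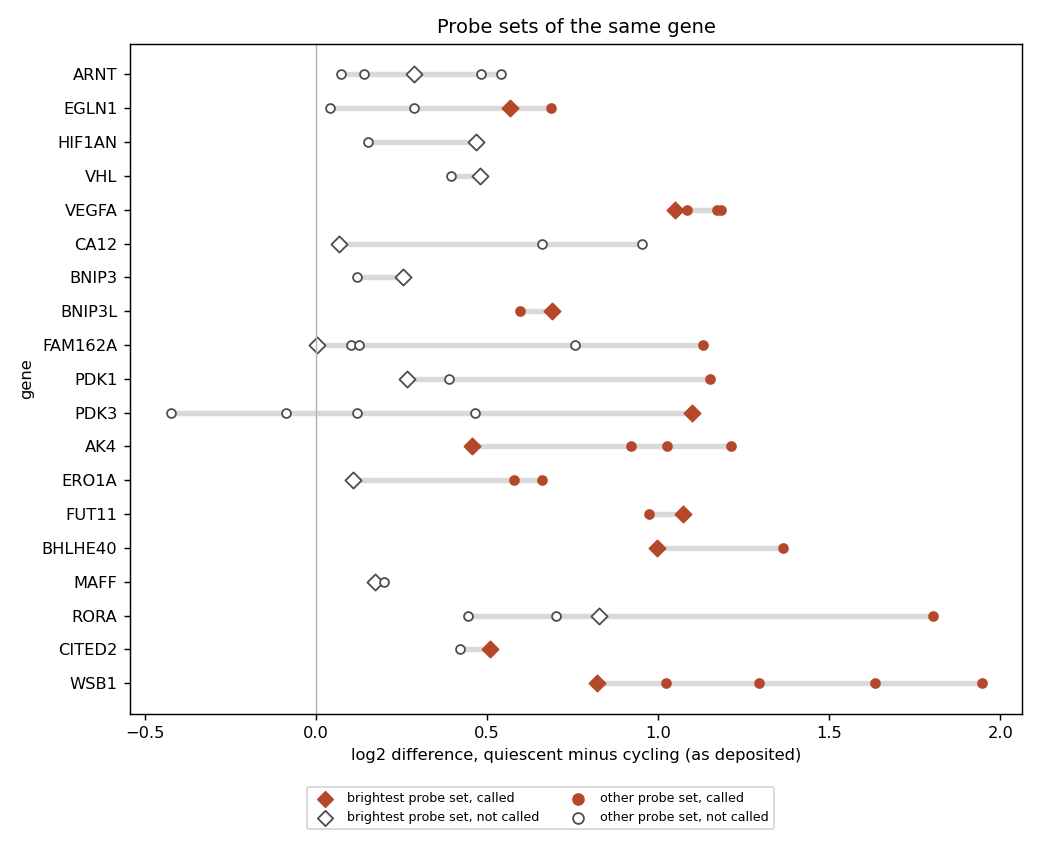
Log2 differences, quiescent minus cycling as deposited, of every probe set past the filter for the 19 genes with more than 1, with the brightest as a diamond and the others as circles, filled where called. VEGFA, BNIP3L, FUT11, AK4, BHLHE40 and WSB1 are filled throughout, whereas PDK3 has 1 filled point among 5.

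Genes of the pathway outside the list were described in 3 further groups. These were also chosen with earlier results of these data known, so they give no independent support. Of 26 other hypoxia-induced genes past the filter, 13 rose and 1 fell as deposited, where 12.3% of all genes rose and 15.4% fell. After quantile normalization 12 rose and 1 fell, against 10.5% and 16.4% of all genes. After centring 6 rose and 3 fell, against 2.8% and 32.5% of all genes. CXCR4, a chemokine receptor, rose by 1.60 log2 units (SE 0.25, limma adjusted p = 6.75e-04), the glucose transporter SLC2A3 by 1.59 and the membrane protein TMEM45A by 1.37, whereas the mitochondrial protein HIGD1A fell, with 6875, 6239, 6463 and 6033 on quiescent arrays, against 15400.5, 10602, 14023 and 13428 on cycling arrays (−1.05, adjusted p = 7.28e-05). These 4 passed in the same direction under all 3 scalings. In all, 6 of the 26 were higher and 1 lower under all 3, against 2.74% and 14.1% of all genes tested. The median of the 26 was 0.40, and −0.01 after centring. Of 15 glycolytic genes, 3 rose and 1 fell as deposited, where 12.3% of all genes rose and 15.4% fell. The counts moved with the scaling, as those of all genes did. They were 5 higher and 0 lower after quantile normalization, against 10.5% and 16.4% of all genes. They were 1 higher and 3 lower after centring, against 2.8% and 32.5% of all genes. ENO2, the neuronal type of enolase, measured 1970.2, 1675, 1384 and 1273 on quiescent arrays, against 783, 762, 565 and 503 on cycling arrays, and rose by 1.28 log2 units (adjusted p = 4.16e-04). ALDOC rose by 0.70 log2 units as deposited and did not pass after centring, GAPDH by 0.24 as deposited only (−0.17 after centring), and the hexokinase HK1, named after its value was seen, fell by 0.62 on the log2 scale but not after quantile normalization. HK1 lost its call without quiescent sample 2, 3 or 4 or cycling sample 1, 3 or 4 (highest adjusted p = 0.105), and GAPDH without quiescent sample 3 or 4 or any 1 cycling sample (highest 0.116). The probe set of GAPDH was the 3′ control that also enters the control ratios above. With its probe sets averaged GAPDH did not pass (0.21, limma adjusted p = 0.0867). LDHA and PGK1, which make lactate and ATP, did not pass, with 0.13 and 0.20 as deposited and −0.28 and −0.22 after centring. The median of the 15 was 0.20, and −0.22 after centring.

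Of 14 cofactors and ligase parts past the filter, 1 rose and 5 fell as deposited, where 15.4% of all genes fell. After quantile normalization 1 rose and 4 fell, where 16.4% of all genes fell. After centring 0 rose and 8 fell, where 32.5% of all genes fell. RBX1 and ELOC are parts of the ubiquitin ligase that VHL belongs to. ELOC measured 7079.7, 6468, 6301 and 6699.7 on quiescent arrays, against 11038, 10214, 11162 and 10211 on cycling arrays, and fell (log2 difference −0.68, SE 0.10, limma adjusted p = 2.96e-04). RBX1 measured 1504, 1408, 1875 and 1446 on quiescent arrays, against 2831, 2262, 2263 and 2832 on cycling arrays, and fell as well (−0.71, adjusted p = 0.00282). The others that fell, named after their values were seen, were ELOB of the same ligase (−0.48), COMMD1 (−0.67) and the chaperone HSP90AB1 (−0.36), and ELOB did not pass after quantile normalization or with its probe sets averaged (−0.19). Without quiescent sample 2 or 3 or cycling sample 1, 3 or 4, COMMD1 and HSP90AB1 each lost their call (highest adjusted p = 0.0692 and 0.0827), as did ELOB, which also lost it without quiescent sample 4 (highest 0.111). CUL2, the scaffold of the ligase, did not pass as deposited (−0.29, adjusted p = 0.199) and was called lower after centring (−0.70). The 1 that rose was SIAH1, a ubiquitin ligase known to act on EGLN enzymes, with 0.93 (adjusted p = 0.0038), and it did not pass after centring (adjusted p = 0.0563). The median of the 14 was −0.19 as deposited and −0.60 after centring.

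**Figure D5:**
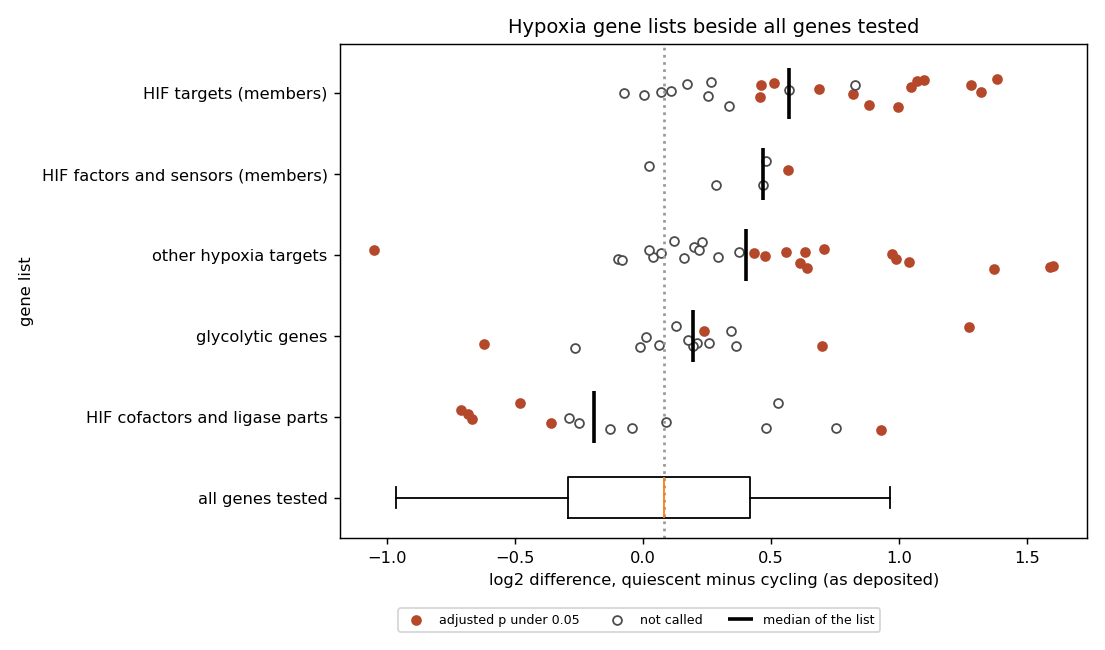
Log2 differences, quiescent minus cycling as deposited, of the induced and machinery members and the 3 further lists, with 1 point per gene past the filter, filled where called, a bar at each median, and a box with quartiles and whiskers at the 5th and 95th percentiles for all 11678 genes tested. The members' medians of 0.57 for induced genes and 0.47 for machinery lie right of the median of all genes at 0.08, and that of cofactors and ligase parts at −0.19 lies left of it.

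Within the cycling group sample 2 stood nearer to the quiescent arrays for most members that rose. Cycling sample 2 was the highest cycling array for 11 of the 14 members that rose (78.6%). The share was 57.2% for all 1431 genes that rose and 35.0% for all genes tested. Averaged as above, all genes tested had 0.06 on cycling sample 2 and −0.07 to 0.03 on the other arrays. Relative to all genes tested, the induced genes averaged −0.18 on cycling sample 2, against −0.34 to −0.33 on cycling samples 1, 3 and 4. Relative to the machinery, they averaged −0.12 on sample 2, −0.25 on sample 1 and −0.08 on samples 3 and 4. Without cycling sample 2 all 14 were called, as they were on all arrays, while the number of all genes that rose was 1697, against 1431 on all arrays. Within the quiescent group sample 3 was the highest for 7 of the 14 and for 28.6% of all genes that rose, and sample 4 was the lowest for 7 of the 14 and for 19.9% of all that rose. Without quiescent sample 3, and likewise without cycling sample 3, 12 members rose, and the number of all genes that rose was 945 and 1029.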

How the data were processed

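RNA of 4 quiescent and 4 cycling samples was measured on Affymetrix U133 Plus 2.0 arrays, from 30 ng of total RNA per the labels' protocols. The authors deposited MAS5 intensities on a linear scale, per the submitters' processing notes and the values, with no MAS5 version stated in the sources used here. Each array's mean after trimming 2% from each end was 500.1. Present calls were not used, and background therefore cannot be separated from low expression. The number of arrays limits the precision.

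Values were floored at an intensity of 1 before the log2 step. The deposited scaling was kept for the values given first, because the array median lies among dim probe sets, and median centring, the main setting of an earlier description of these data, stands beside it with quantile normalization. Of 54675 probe sets, 41097 had 1 symbol, 1801 several and 11777 none in GEO's platform annotation, 62 controls included. Entrez identifiers of 41043 matched RefSeq genes (GRCh38.p14). The gene test was limma's moderated one (limma 3.58.1, R 4.3.3), with a trend in mean intensity, robust variances and no covariate, and control ratios were compared by two-sided exact permutation over samples. Other probe sets were fitted together over all 22265 probe sets with 1 symbol past the filter.

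Members and lists were chosen with earlier results of these data known. Every member is described, the 33 measured with values. Of the further pathway groups at most 4 called genes with the largest differences and no overlap are named, with exceptions. These are HK1, ELOB, COMMD1 and HSP90AB1, then LDHA, PGK1 and CUL2, which were not called as deposited, and genes whose call changed with the replicate block. Promoters are RefSeq's, 250 bases before each start.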

Additional observations from a re-analysis of the deposited data

Results flagged for a closer look

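BHLHE40 in quiescent sample 2 measured 531, apart from the other quiescent arrays at 382 to 397. Its gap to the nearest array was 0.879 of the group's range on the log2 scale. Among 66 groups of 4 checked, 33 genes in each of the 2 fractions, it was the 1 that stood out, and chance alone does so in about 1 group in 20. Without that sample the log2 difference of BHLHE40 was 0.89 and still passed.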

How the results depend on the processing

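Array scaling had the largest effect. After centring on medians, 327 genes were higher and 3795 lower, 8 members and 8 induced genes were higher and 0 machinery genes were, and the signs of HIF1A (−0.39), ARNT (−0.13), CA12 (−0.34), BNIP3 (−0.16), FAM162A (−0.41), PDK1 (−0.15), ERO1A (−0.30), GBE1 (−0.077) and MAFF (−0.24) turned, none of them called. Centring subtracts 0.41 from every difference by construction. After quantile normalization CA12 turned to −0.32. With all probe sets of a gene averaged, 0 machinery genes passed in place of 1, and 16 members did, with 1719 genes in all higher. Leaving out 1 array at a time gave 945 to 1697 genes higher (945 without quiescent replicate 3), 1419 to 1900 genes lower, 12 to 14 members and 11 to 13 induced genes higher, with 0 members lower each time, and ranges that cross 0 for HIF1A (−0.16 to 0.14), CA12 (−0.11 to 0.29), FAM162A (−0.079 to 0.054) and P4HA2 (−0.25 to 0.24). Quiescent replicate 1 decided RORA, which passed without it (1.01). No filter gave 13 members and 1226 genes in all higher. A filter at an intensity of 422.1 gave 13 members, with 23 tested, and 1091 genes in all. Adding 32 before log2 gave 14 members and 1475 genes in all, and eBayes without trend and robust gave 14 and 1300. The labels do not say that a number marks a shared culture. Deviations of same-numbered samples from their group means correlated at 0.344, 0.196, 0.110 and 0.036, and pairing was taken to need over 0.1 for each, which 3 of 4 met, so it stays unsettled. Quiescent samples 3 and 4 correlated best with cycling samples 4 and 3. With the replicate block 2002 genes were higher, 2232 lower and 15 members higher, GBE1 being the 1 added, and calls of higher were added for EP300 and CREBBP, for HK2, GPI and ALDOA, for PFKFB3, and for the markers PECAM1 and CD79B, with 0 lost in these lists. Dim values limit EPAS1, EGLN2, EGLN3, STC2 and LOX, which were not tested. The causes of these changes were otherwise not tested.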
